A study of Mus musculus with 18 samples.

Results

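Mammalian genomes carry 3 paralogous clusters that each encode 1 miRNA of the miR-99/100 family, 1 of the let-7 family and 1 of the miR-125 family. In mouse these are Mir99a, Mirlet7c-1 and Mir125b-2 on chromosome 16, Mir99b, Mirlet7e and Mir125a on chromosome 17, and Mir100, Mirlet7a-2 and Mir125b-1 on chromosome 9. The 9 symbols were looked up among the 2009 hairpin loci counted in every library, and 8 of the 9 had a row of their own. Mirlet7e had none. The row of Gm25927, an interval annotated on the minus strand from 17830343 to 17830459 of chromosome 17, spans the whole let-7e hairpin, which lies on the plus strand from 17830352 to 17830444. Counting ignored the strand, so reads from the let-7e hairpin and from its opposite strand cannot be told apart in this row. It is described as the let-7e interval, which makes 9 loci in all.

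Small RNA libraries had been made from extracellular vesicles (EVs), the membrane particles that cells release, and from the adipose stromal cells (ASC) that released them, mesenchymal cells grown from adipose tissue of adult mice of the NGL strain. Primed EVs (n = 5) and primed ASC (n = 4) came from cells exposed to interferon gamma, an inflammatory cytokine, for 24 h, while naive EVs (n = 5) and naive ASC (n = 4) came from unexposed cells. All cells were then cultured for 48 h in alpha MEM with 2% serum freed of EVs. The cells' RNA was extracted in TRIzol and cleaned on RNeasy columns and the vesicles' RNA with a SeraMir kit, so the kind of sample and the isolation method cannot be told apart in any comparison of EVs with ASC. Since no label ties a replicate to an animal of its own, the p-values below cover the spread between these samples alone, which may be technical.

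Library totals ran between 626951 and 3052942 counts in primed EVs, 613448 and 2245823 in naive EVs, 180812 and 895721 in primed ASC, and 486237 and 926183 in naive ASC. The lowest count at any of the 9 loci was 369, for Mir100 in primed ASC 4, the shallowest library. All 9 loci therefore passed the filter on low counts, which kept 245 loci. All 7 mesenchymal marker loci had counts in every group, and together they held a median of 62.8% of counts in primed EVs, 60.9% in naive EVs, 25.6% in primed ASC and 35.9% in naive ASC. Such a sum weighs each marker by its counts, so it does not show that every mesenchymal marker was higher in EVs. Of the 7 blood cell markers 6 had a row with counts, with a summed median share of 0.422% in primed EVs, 0.461% in naive EVs, 0.0297% in primed ASC and 0.0165% in naive ASC. Their ranges were 0.147% to 0.625%, 0.361% to 1.49%, 0.00916% to 0.0559% and 0.0128% to 0.0214% in the same order of groups. The endothelial locus Mir126a followed the same order, with medians of 0.322%, 0.607%, 0.0246% and 0.0124%. All 7 epithelial markers had counts in every group, with summed medians of 0.012%, 0.0615%, 0.0594% and 0.104% in the same order of groups. They reached 0.287% in 1 naive EV library and 0.27% in 1 naive ASC library. The part of these cell types in the EV and ASC results was not tested.

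The miR-99/100 family is known for repressing mTOR and the insulin-like growth factor receptor. The let-7 family restrains growth and developmental timing through targets such as Hmga2, Lin28 and Ras genes. The miR-125 family, whose relative in Caenorhabditis elegans is lin-4, is known for roles in blood cell formation, inflammation and stromal cell differentiation. Members of a cluster may come from 1 primary transcript, while each mature miRNA is cut, loaded and lost on its own.

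The mature 5p arms are shown because bases 2 to 8, the seed, define the 3 families and because loci of different clusters give nearly or fully identical products. The sequences are those of RefSeq on GRCm38.p6, written 5′ to 3′ with the seed in capitals.
miR-99a-5p: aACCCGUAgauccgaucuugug
miR-100-5p: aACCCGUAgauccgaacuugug
miR-99b-5p: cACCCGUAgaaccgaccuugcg
let-7c-5p: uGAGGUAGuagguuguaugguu
let-7e-5p: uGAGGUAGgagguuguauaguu
let-7a-5p, as listed for Mirlet7a-1: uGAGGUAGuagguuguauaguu
miR-125b-5p: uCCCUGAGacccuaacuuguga
miR-125a-5p: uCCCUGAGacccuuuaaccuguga

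Counted from 1 at the 5′ end, miR-100-5p differs from miR-99a-5p by the substitution U16A, and miR-99b-5p differs from it by A1C, U11A, U16C and U21C. let-7e-5p differs from let-7c-5p by U9G and G19A. miR-125a-5p has 24 bases and miR-125b-5p has 22, and the first 13 are the same. Mir125b-1 and Mir125b-2 give the same 22-base 5p arm and part in the arm of the other side of the hairpin, which is shown because it is the only mature sequence that tells these 2 loci apart.
miR-125b-1-3p: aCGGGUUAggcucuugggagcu
miR-125b-2-3p: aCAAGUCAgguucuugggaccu

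No other counted locus has a RefSeq mature arm with the miR-99/100 seed ACCCGUA, while 11 others have the let-7 seed GAGGUAG and 3 others the miR-125 seed CCCUGAG. Reads of a mature sequence that 2 loci share map to both, and the counting headers give no option for such reads. The split of miR-125b between Mir125b-1 and Mir125b-2, of let-7a between Mirlet7a-2 and Mirlet7a-1, and of let-7c between Mirlet7c-1 and Mirlet7c-2 is therefore uncertain. The headers hold no option that asks for such reads to be counted, and whether they were left out was not tested. The counts of these loci therefore cannot be taken as levels of the shared 5p arm. Mirlet7a-1 had 605 counts in all libraries together, while Mirlet7a-2 had up to 22925 in a single primed EV library.

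The clusters differ in size. On GRCm38, Mir99a lies at chr16:77598936-77599000, Mirlet7c-1 at chr16:77599652-77599759 and Mir125b-2 at chr16:77646273-77646343, all on the plus strand in introns of the host transcript Mir99ahg, with 47408 bases over the whole cluster. Mir99b lies at chr17:17830188-17830257 and the let-7e interval at chr17:17830343-17830459 in an intron of Spaca6, and Mir125a at chr17:17830803-17830887 overlaps an exon of Spaca6. This cluster takes 700 bases. Mir100 lies at chr9:41531425-41531504, Mirlet7a-2 at chr9:41536716-41536811 and Mir125b-1 at chr9:41581926-41582002, in introns of the noncoding transcripts 3110039I08Rik and Gm49317, over 50578 bases. Mir100 also overlaps an exon of Gm48742 on the opposite strand, and Mir125b-1 an exon of Gm28119. No other counted interval overlaps any of the 9.

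The 9 loci held a small share of EV counts and a large share of ASC counts. Together they took 6.39% ± 0.34 of all counts in the 5 primed EV libraries (mean ± SD), 6.36% ± 0.40 in the 5 naive EV libraries, 25.4% ± 3.75 in the 4 primed ASC libraries and 19.2% ± 4.47 in the 4 naive ASC libraries. The EV libraries ran between 5.81% and 6.82%, and the ASC libraries between 15.3% and 29.8%, with no overlap. The families made up these shares differently. The let-7 loci took 63.4% ± 1.67 of the counts on the 9 loci in primed EVs, 62.9% ± 2.94 in naive EVs, 17.7% ± 5.54 in primed ASC and 28.0% ± 2.99 in naive ASC. The miR-125 loci took 24.5% ± 1.43 in primed EVs, 24.0% ± 2.54 in naive EVs, 62.0% ± 4.75 in primed ASC and 51.1% ± 1.63 in naive ASC. The miR-99/100 loci took 12.1% ± 1.15, 13.1% ± 1.06, 20.3% ± 1.82 and 20.9% ± 2.29 in the same order of groups.

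**Figure D1:**
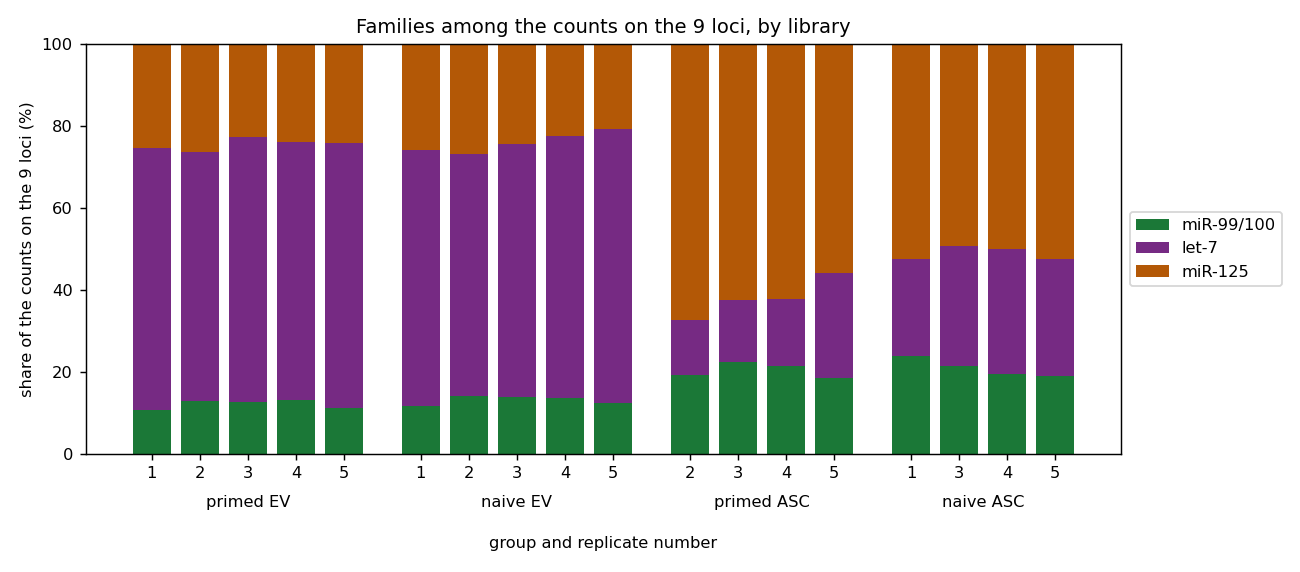
Share (%) of the counts on the 9 loci that fell on miR-99/100, let-7 and miR-125 loci, with 1 stacked bar per library. In the 10 EV bars let-7 takes 59.1% to 67.05%, and in the 8 ASC bars it takes 13.2% to 30.5% while miR-125 takes 49.3% to 67.5%.

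As shares of all counts, the let-7 loci stood close in all groups, at 4.05% ± 0.22 in primed EVs, 4.00% ± 0.34 in naive EVs, 4.39% ± 0.95 in primed ASC and 5.36% ± 1.33 in naive ASC. The miR-125 loci held 1.57% ± 0.13, 1.53% ± 0.19, 15.8% ± 2.92 and 9.84% ± 2.57 in the same order. Of the 3 clusters, the Mir99a cluster held the largest share of the 9-locus counts in EVs, with 47.8% ± 1.16 in primed EVs and 45.1% ± 3.04 in naive EVs. It held 16.8% ± 4.19 in primed ASC and 24.5% ± 2.42 in naive ASC. The Mir99b cluster held the largest mean share in ASC, with 45.8% ± 5.56 in primed ASC and 41.2% ± 1.32 in naive ASC. In primed ASC 5, though, it held 38.0% and the Mir100 cluster 39.1%. In EVs the Mir99b cluster held 23.2% ± 1.00 in primed and 25.4% ± 1.66 in naive samples. The Mir100 cluster held 29.0% ± 1.84, 29.5% ± 2.91, 37.3% ± 3.32 and 34.2% ± 1.38 in primed EVs, naive EVs, primed ASC and naive ASC. These shares are descriptions without a test.

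Levels are given as CPM, counts per 1000000 of the TMM-scaled library total, without correction for hairpin length. Mir125b-1, the most counted of the 9 in ASC, had 13817, 11579, 10646, 12585 and 10043 CPM in primed EV 1 to 5 and 10380, 9400, 9035, 7866 and 7855 CPM in naive EV 1 to 5. It had 72931, 70408, 68515 and 57931 CPM in primed ASC 2 to 5 and 47259, 34693, 39866 and 46992 CPM in naive ASC 1, 3, 4 and 5. All EV libraries lay below all ASC libraries, and all primed ASC libraries above all naive ASC libraries. By mean CPM it ranked 2 among all loci in primed ASC and 5 in naive ASC, but 13 and 14 in the EV groups.

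Mir125a, whose product shares the seed of miR-125b, had 8068, 6340, 8005, 8374 and 6751 CPM in primed EV 1 to 5 and 6769, 6114, 8359, 6297 and 5361 CPM in naive EV 1 to 5. It had 55297, 58495, 65912 and 38223 CPM in primed ASC 2 to 5 and 31402, 26639, 28497 and 36527 CPM in naive ASC 1, 3, 4 and 5. The order was that of Mir125b-1, with primed ASC 5 the lowest of the primed cells and close to the highest naive library. Mir125b-2 had fewer counts, with 1633 ± 265 CPM in primed EVs, 1088 ± 162 in naive EVs, 5380 ± 377 in primed ASC and 2729 ± 466 in naive ASC.

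Mir99b had 5975, 6317, 7834, 8499 and 5535 CPM in primed EV 1 to 5 and 5452, 5888, 7781, 6753 and 5619 CPM in naive EV 1 to 5. It had 33361, 43142, 43680 and 26317 CPM in primed ASC 2 to 5 and 32063, 22880, 22604 and 26819 CPM in naive ASC 1, 3, 4 and 5. EV and ASC libraries were apart, while primed and naive ASC overlapped. Mir99a and Mir100, whose mature arms differ by 1 base, had few counts in all groups. Mir99a averaged 1871 ± 621 CPM in primed EVs, 1154 ± 274 in naive EVs, 2775 ± 740 in primed ASC and 2432 ± 708 in naive ASC. Mir100 averaged 1636 ± 281, 1578 ± 362, 2497 ± 1037 and 2388 ± 775 CPM in the same order, and its ASC libraries, between 1532 and 3712 CPM, overlapped its EV libraries, between 1106 and 1970 CPM.

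Mirlet7c-1 was the most counted of the 9 in EVs. It had 39890, 31273, 39592, 42197 and 33852 CPM in primed EV 1 to 5 and 28380, 23152, 33112, 28668 and 31695 CPM in naive EV 1 to 5. It had 18582, 25402, 27134 and 32853 CPM in primed ASC 2 to 5 and 28036, 28242, 32456 and 34724 CPM in naive ASC 1, 3, 4 and 5, and every pair of groups overlapped. Mirlet7a-2 had 13669, 8547, 12159, 12230 and 9949 CPM in primed EV 1 to 5 and 10831, 8579, 9566, 10715 and 9416 CPM in naive EV 1 to 5. It had 5145, 4851, 5151 and 9367 CPM in primed ASC 2 to 5 and 5639, 5820, 5971 and 7271 CPM in naive ASC 1, 3, 4 and 5. Primed ASC 5 stood apart from the other primed cells and within the EV range. The let-7e interval averaged 5429 ± 610 CPM in primed EVs, 4647 ± 476 in naive EVs, 3556 ± 1032 in primed ASC and 4174 ± 624 in naive ASC.

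**Figure D2:**
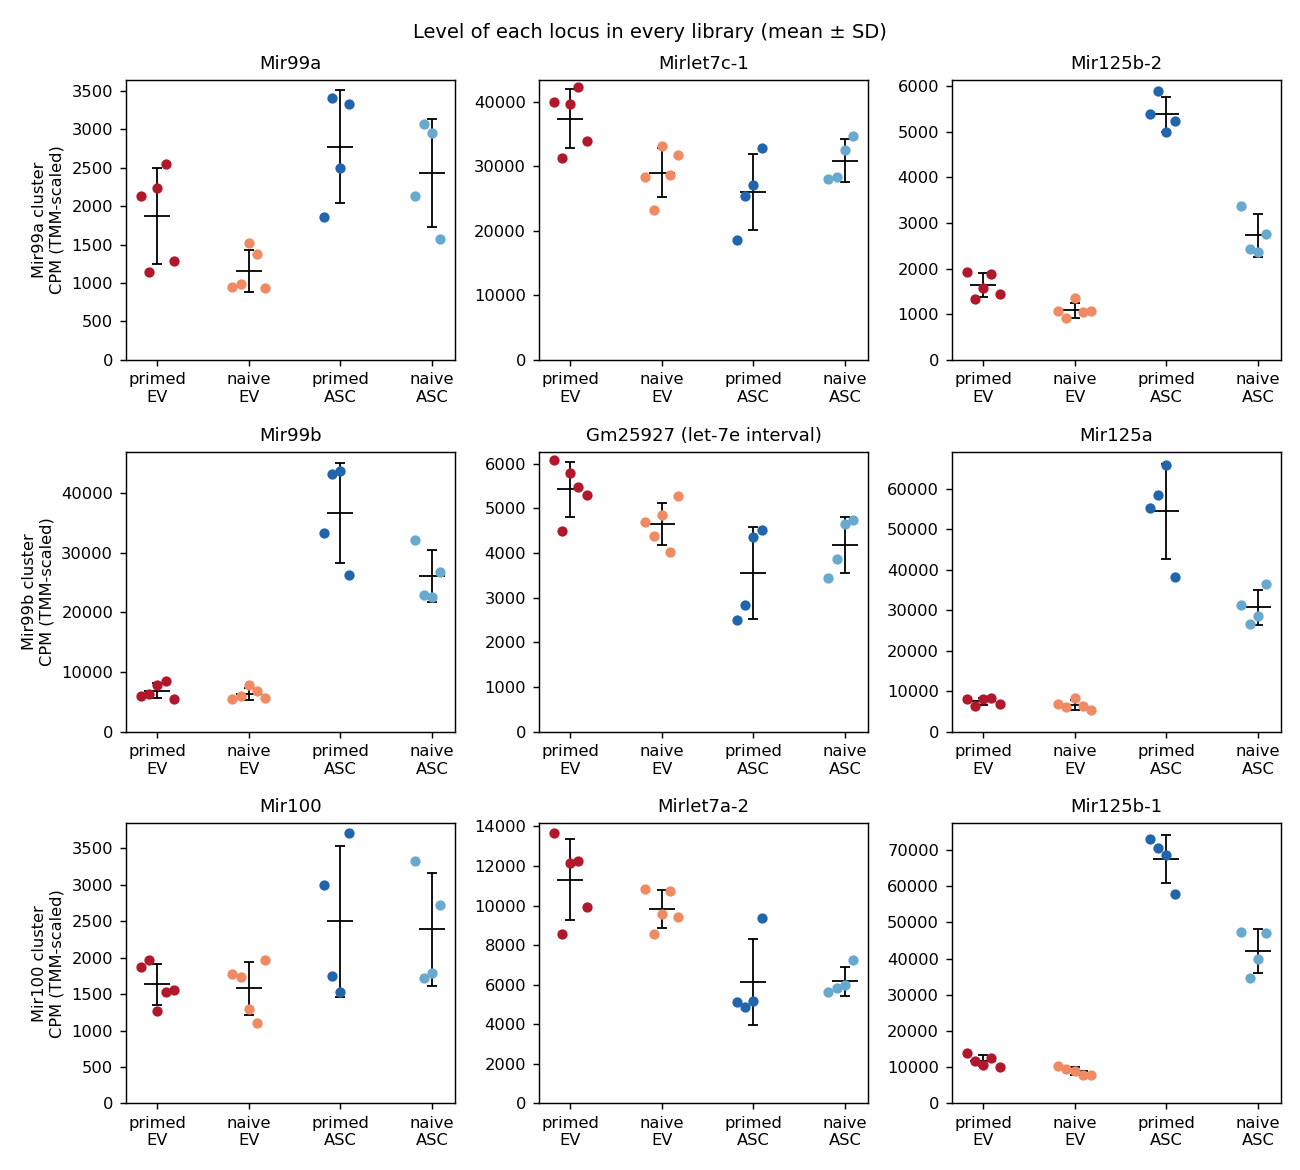
CPM on TMM-scaled totals at each of the 9 loci, with 1 point per library, the group mean as a bar and the SD as whiskers, clusters in rows and families in columns. Mir99b and the 3 miR-125 loci lie lower in all EV libraries than in all ASC libraries, while the 3 let-7 loci do not.

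The order of the groups differed by family. For the 3 miR-125 loci and Mir99b the mean CPM was highest in primed ASC, then in naive ASC, primed EVs and naive EVs, and the 2 EV groups overlapped at each of these loci. For Mir99a and Mir100 the order of means was the same, with overlap between neighbouring groups throughout. For Mirlet7a-2 the order was primed EVs, naive EVs, naive ASC and primed ASC, where both EV groups overlapped and both ASC groups overlapped. The let-7e interval had the same order as Mirlet7a-2, while for Mirlet7c-1 the order was primed EVs, naive ASC, naive EVs and primed ASC, and neighbours overlapped at both.

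Naive EVs were compared with naive ASC to ask which miRNAs the vesicles hold more or less of than their parent cells. Mir125b-1 was lower in naive EVs by a log2 fold change of -2.24 (SE 0.15, adjusted p = 3.9e-10, edgeR quasi-likelihood test with Benjamini-Hochberg adjustment over 245 loci). Mir125a was lower at -2.23 (SE 0.18), Mir99b at -2.05 (SE 0.19), Mir125b-2 at -1.33 (SE 0.17) and Mir99a at -1.08 (SE 0.27), with an adjusted p of at most 0.00166 by the same test. Mirlet7a-2 alone of the 9 was higher, at 0.67 (SE 0.20, adjusted p = 0.00566 by the edgeR test), and it did not pass with library totals alone (0.17). Mirlet7c-1 at -0.09, the let-7e interval at 0.15 and Mir100 at -0.60 (adjusted p = 0.0543 by the edgeR test) did not pass. With library totals alone Mirlet7c-1 passed as lower, at -0.59 (adjusted p = 0.0033, edgeR). Mir100 passed without naive EV 5 or naive ASC 4 (smallest adjusted p = 0.0357, edgeR), and with library totals alone. It also passed under replicate blocks by source name number and by title number, at -0.63 each (adjusted p = 0.0037 and 0.00361, edgeR).

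Of the 9 loci 1 was thus higher and 5 were lower, where 33.5% of all tested loci were higher and 32.7% lower. In 5 loci every naive EV library lay below every naive ASC library and in 1 above, against 28.2% and 30.2% of all tested loci. The median log2 fold change was -1.08 over the 9 loci and -0.24 over all tested loci. In bulk RNA, fewer cells or vesicles that carry a miRNA and less of it in each cannot be told apart. Scaled by library totals alone, the median over all loci was -0.70 and 65 loci were higher and 116 lower, against 82 and 80 with TMM, and none of the 9 was higher.

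Primed EVs and primed ASC gave the same comparison after interferon gamma. Mir125a was lower in primed EVs at -2.86 (SE 0.18), Mir125b-1 at -2.52 (SE 0.15), Mir99b at -2.42 (SE 0.19) and Mir125b-2 at -1.72 (SE 0.17), with an adjusted p of at most 2.87e-08 in the edgeR quasi-likelihood test with Benjamini-Hochberg adjustment. Mirlet7a-2 was higher at 0.88 (SE 0.20, adjusted p = 0.000589 by that edgeR test) and stood at 0.17, not passing, with library totals alone. The let-7e interval was higher at 0.61 (SE 0.18, adjusted p = 0.00651, edgeR) and Mirlet7c-1 at 0.52 (SE 0.17, adjusted p = 0.00912, edgeR), and with library totals alone both turned round, to -0.11 and -0.20. Without primed ASC 2 neither passed, and without primed ASC 3 the let-7e interval did not (largest adjusted p = 0.0712 for Mirlet7c-1 and 0.0566 for the interval, edgeR).

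Of the miR-99/100 loci with near-identical arms, Mir100 was lower at -0.61 (SE 0.27, adjusted p = 0.0478, edgeR) and Mir99a stood at -0.57 (SE 0.27, adjusted p = 0.067, edgeR). Both values sat at the threshold. The Mir100 call was lost in 14 of 18 fits that left out 1 library, with an adjusted p of up to 0.283 by edgeR, and Mir99a passed in 9 of 12 other settings. In this comparison 3 of the 9 loci were higher and 5 lower, where 35.9% of all tested loci were higher and 32.2% lower. In 4 loci, Mir99b and the 3 miR-125 loci, every primed EV library lay below every primed ASC library, and in 0 above, against 25.7% and 27.8% of all tested loci. The median was -0.61 over the 9 loci and 0.02 over all tested loci. With library totals alone the median over all loci was -0.69, with 58 loci higher and 118 lower, against 88 and 79 with TMM.

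**Figure D3:**
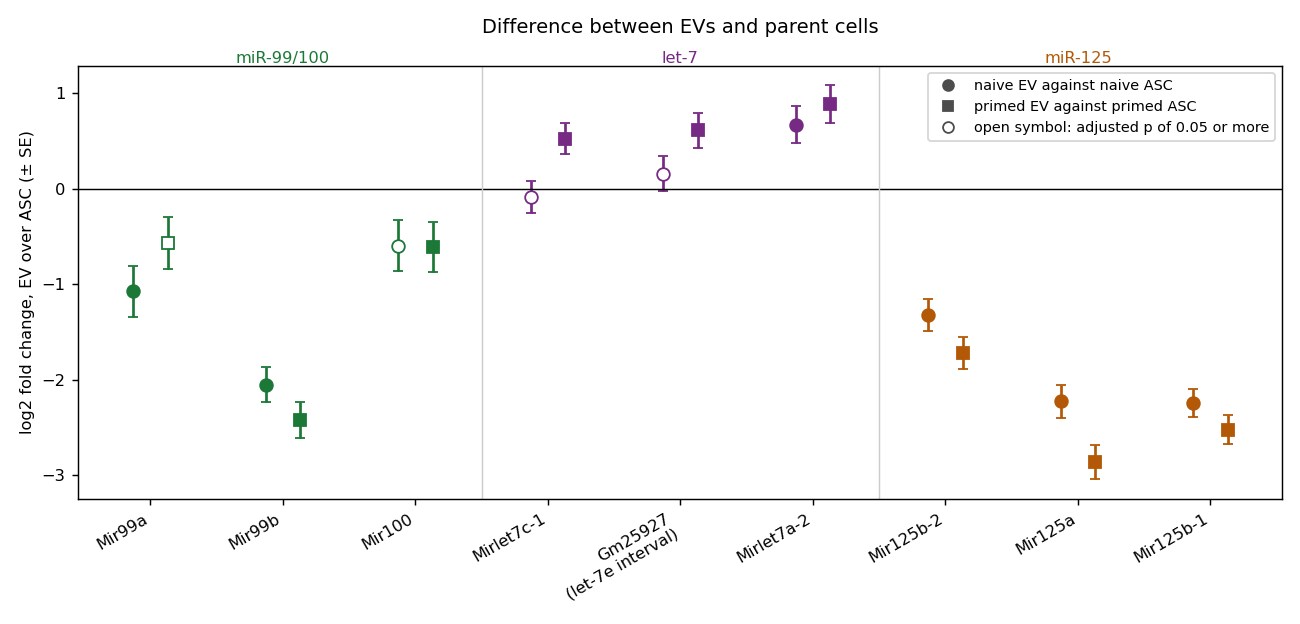
Log2 fold change of EVs over ASC (± SE, edgeR fit to 18 libraries) for the 9 loci, grouped by family, for naive (circles) and primed (squares) samples. The miR-125 loci and Mir99b lie between -1.33 and -2.86, and the let-7 loci between -0.09 and 0.88, where with library totals alone Mirlet7c-1 and the let-7e interval lie below 0 in both comparisons.

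GC content moved with these differences across loci. Of the 245 tested loci, 196 had both mature arms in RefSeq, and over the 188 of these outside the clusters the log2 fold change correlated with the GC content of both arms at r = -0.558 in naive and -0.634 in primed samples. The points share the same libraries, so this is a description. Subtracting the fitted line, an alternative added after the data were seen, left Mir125a at -1.88 in naive and -2.51 in primed samples, Mir125b-1 at -1.88 and -2.15, and Mir125b-2 at -1.47 and -1.95. Mir99b, whose mature arms have the highest GC content of the set at 63.6%, was left at -0.67 and -0.84, and Mirlet7c-1, at 43.2%, at -0.99 and -0.60. Mir100, also at 43.2%, moved to -1.501 and -1.74, a larger difference than without the line, Mir99a to -1.35 and -0.95, and the let-7e interval to -0.24 and 0.08. Mirlet7a-2 had no such value.

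Ratios of 2 loci within a library do not depend on scaling, and they show how the members of 1 cluster part. Over 18 ratios and 4 comparisons, 72 exact two-sided permutation tests were run and adjusted together by Benjamini-Hochberg. The smallest p that 5 against 4 libraries can give is 0.0159, which every ratio with separate EV and ASC groups reached, and it became 0.0423 after adjustment.

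The ratio of Mir125b-1 to Mirlet7a-2 parted EVs from ASC widely. In log2 units it was 0.02, 0.44, -0.19, 0.04 and 0.01 in primed EV 1 to 5 and -0.06, 0.13, -0.08, -0.45 and -0.26 in naive EV 1 to 5. It was 3.83, 3.86, 3.73 and 2.63 in primed ASC 2 to 5 and 3.07, 2.58, 2.74 and 2.69 in naive ASC 1, 3, 4 and 5. The 2 loci of this cluster were thus counted about equally in EVs, while in ASC the miR-125b locus was counted several times more in every library. The difference was -3.45 in primed and -2.91 in naive samples (exact permutation test, adjusted p = 0.0423 each).

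The other clusters moved the same way. The log2 ratio of Mir125a to the let-7e interval was 0.47 ± 0.10 in primed EVs and 3.96 ± 0.63 in primed ASC, and 0.49 ± 0.29 in naive EVs and 2.88 ± 0.24 in naive ASC. That of Mir125b-2 to Mirlet7c-1 was -4.52 ± 0.10 in primed EVs and -2.25 ± 0.38 in primed ASC, and -4.74 ± 0.11 in naive EVs and -3.51 ± 0.32 in naive ASC. Each of these 4 differences was lower in EVs with no overlap (adjusted p = 0.0423, exact permutation test).

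The log2 ratio of the let-7 member to its miR-99/100 neighbour was higher in EVs than in ASC, although the let-7e interval was counted less than Mir99b in the mean of every group. The let-7e interval over Mir99b stood at -0.32 ± 0.29 in primed EVs and -3.38 ± 0.61 in primed ASC, and at -0.43 ± 0.29 in naive EVs and -2.64 ± 0.40 in naive ASC. Mirlet7a-2 over Mir100 stood at 2.79 ± 0.43 in primed EVs and 1.33 ± 0.41 in primed ASC, and at 2.66 ± 0.43 in naive EVs and 1.42 ± 0.47 in naive ASC. These passed in both comparisons (adjusted p = 0.0423, exact permutation test), and Mirlet7c-1 over Mir99a passed in primed samples, with a difference of 1.14, and not in naive ones, with 0.96 (adjusted p = 0.104, exact permutation test).

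Ratios of the miR-125 to the miR-99/100 member differed between EVs and ASC to an unequal degree in the 3 clusters. Mir125a over Mir99b, hairpins less than 1 kb apart, was 0.15 ± 0.20 in primed EVs and 0.58 ± 0.12 in primed ASC, and 0.06 ± 0.16 in naive EVs and 0.24 ± 0.20 in naive ASC. The primed difference of -0.43 passed and the naive one of -0.18 did not (adjusted p = 0.0423 and 0.267, exact permutation test). Mir125b-1 over Mir100 was lower in EVs in both, by -1.996 and -1.67, and Mir125b-2 over Mir99a in primed samples by -1.13. In all, 9 of the 9 ratios within clusters passed between primed EVs and primed ASC, and 6 of 9 between naive EVs and naive ASC. Within a cluster each log2 ratio follows from the others, so these are not 9 separate results. Many single loci parted EVs from ASC as well. Among 245 tested, the primed comparison called 88 upward and 79 downward, and the naive one 82 and 80. Ratios of loci outside the clusters were not tested, so these counts have no background share beside them.

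**Figure D4:**
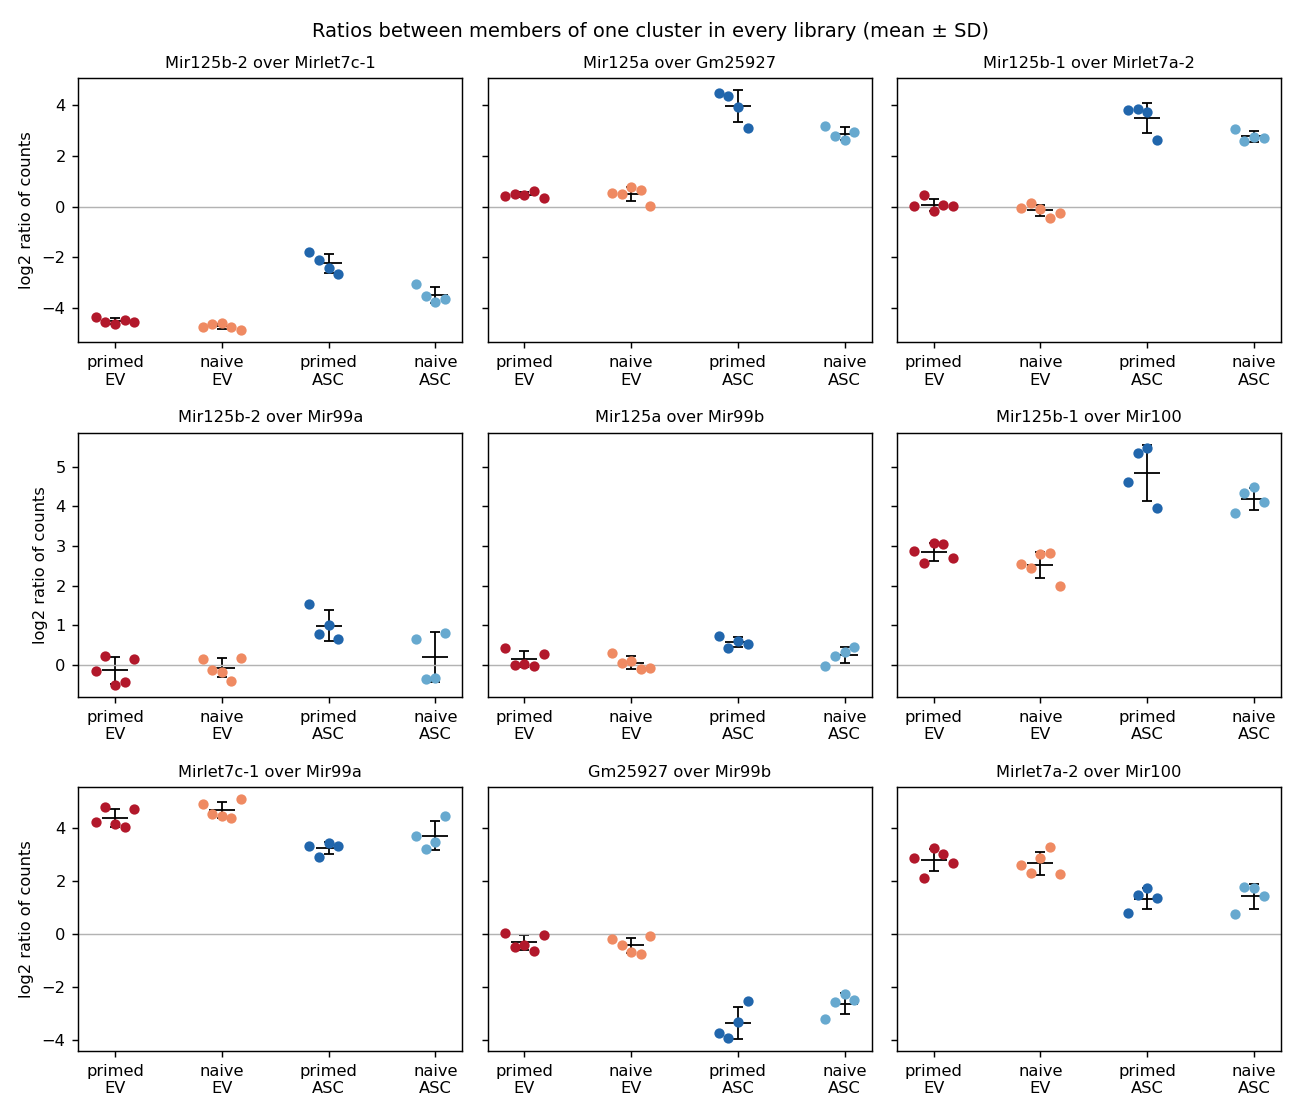
Log2 ratio of counts between members of 1 cluster, with 1 point per library, the group mean as a bar and the SD as whiskers, clusters in columns. In the top row, miR-125 over let-7, the EV and ASC libraries are apart in all 3 clusters, for instance at -0.45 to 0.44 in EVs and 2.58 to 3.86 in ASC for Mir125b-1 over Mirlet7a-2.

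Paralogs of different clusters were compared in the same way. Mir125b-1 over Mir125a, loci on different chromosomes with products of the same seed, was 0.64 ± 0.18 in primed EVs and 0.33 ± 0.23 in primed ASC, and 0.44 ± 0.22 in naive EVs and 0.45 ± 0.10 in naive ASC. The differences of 0.31 and -0.01 did not pass (adjusted p = 0.185 and 0.968, exact permutation test). Mir125b-1 over Mir125b-2, which share the 5p arm shown above, was lower in EVs by -0.79 in primed and -0.92 in naive samples, without overlap (adjusted p = 0.0423 each, exact permutation test). Whether reads of that shared arm were left out was not tested, so the mature arms that this ratio rests on are uncertain. If they were left out, counts summed over both loci do not hold them either. The counts summed over both loci stood at -2.46 (SE 0.16) in primed EVs against primed ASC and at -2.20 (SE 0.16) in naive EVs against naive ASC.

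Among the miR-99/100 loci, Mir99b over Mir99a was lower in EVs by -1.81 in primed and -0.99 in naive samples, and Mir100 over Mir99b higher by 1.88 and 1.48 (adjusted p = 0.0423 each, exact permutation test). Mir100 over Mir99a, the pair with 1 base of difference, did not pass in either. Among the let-7 loci, Mirlet7a-2 over Mirlet7c-1 was higher in naive EVs by 0.77 and Mirlet7a-2 over the let-7e interval by 0.51, both with an adjusted p of 0.0423 in the exact permutation test. Neither passed in primed samples, at 0.38 and 0.27. Of the 9 paralog ratios 4 passed between primed EVs and primed ASC and 6 between naive EVs and naive ASC. Within a family, too, each log2 ratio follows from the others, and these counts have no background share either.

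Priming was compared in cells to ask what interferon gamma changes in the parent cells. The 3 miR-125 loci were higher in primed ASC than in naive ASC, each with no overlap between the groups. Mir125b-2 stood at 0.98 (SE 0.18, adjusted p = 0.00469), Mir125a at 0.82 (SE 0.18, adjusted p = 0.00883) and Mir125b-1 at 0.68 (SE 0.16, adjusted p = 0.0115) in the edgeR quasi-likelihood test with Benjamini-Hochberg adjustment. None of the other 6 loci passed. Mir99b stood at 0.49 (SE 0.20, adjusted p = 0.126, edgeR) and passed in 6 of 12 other settings, Mir99a at 0.19, Mir100 at 0.07, Mirlet7a-2 at -0.01, the let-7e interval at -0.23 and Mirlet7c-1 at -0.25.

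Of the 9 loci 3 were thus higher and 0 lower, where 5.31% of all tested loci were higher and 4.9% lower, and 3 were higher without overlap, against 6.53% of all tested loci. The median was 0.19 over the 9 loci and -0.12 over all tested loci. The call of Mir125b-1 was lost without naive ASC 3 or naive ASC 4 (adjusted p up to 0.0661, edgeR) and with no filter on low counts (adjusted p = 0.134, edgeR), and other scalings changed the split over all loci, with 18 higher and 5 lower by relative log expression factors and 17 and 2 by TMMwsp factors, against 13 and 12 with TMM. The counts summed over Mir125b-1 and Mir125b-2 were higher at 0.79 (SE 0.16, adjusted p = 0.00574, edgeR).

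No ratio within or between clusters passed in primed against naive ASC, where 4 against 4 libraries cannot go below a p of 0.0286. Mir125b-2 over Mirlet7c-1 was higher in every primed ASC library, at -2.25 ± 0.38 against -3.51 ± 0.32 in naive ASC (adjusted p = 0.0686, exact permutation test). The let-7 share of the 9-locus counts was 13.2%, 15.3%, 16.4% and 25.8% in primed ASC 2 to 5 and 23.7%, 29.3%, 30.5% and 28.5% in naive ASC 1, 3, 4 and 5. Primed ASC 5 alone lay in the naive range.

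In vesicles none of the 9 loci passed between primed EVs and naive EVs, where 0.816% of all tested loci were higher and 0% lower in the edgeR test. At an unadjusted p under 0.05 there were 4 of the 9, against 25 of the 245 tested. Mir99a stood at 0.70 (SE 0.26), Mir125b-2 at 0.59 (SE 0.16, adjusted p = 0.0834, edgeR), Mir125b-1 at 0.40 (SE 0.14) and Mirlet7c-1 at 0.37 (SE 0.16). Mir125b-2 passed in DESeq2 (1 of the 9) and without 1 of 4 libraries, primed EV 2, primed EV 5, naive EV 1 or naive EV 3, and Mir99a passed without primed EV 2. Under a replicate block by title number Mir125b-2 passed at 0.62 (adjusted p = 0.0383, edgeR). By CPM, Mir125b-2 had 1928, 1334, 1577, 1887 and 1441 in primed EV 1 to 5 and 1061, 915, 1356, 1045 and 1063 in naive EV 1 to 5, so that 1 naive library lay above the lowest primed one. The remaining 5 loci lay between 0.05 and 0.22. None of the 9 had all primed EV libraries above all naive EV libraries, against 2.45% of all tested loci.

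Among the ratios, Mir125b-2 over Mirlet7c-1 was higher in primed EVs by 0.22 and Mir125a over Mir125b-2 lower by -0.39, each with an adjusted p of 0.0423 in the exact permutation test although the groups overlapped. The other 16 ratios did not pass. The difference between the priming effects in EVs and in ASC was tested as an interaction, and 0 of the 9 loci passed, as did 0% of all tested loci in the edgeR test. At an unadjusted p under 0.05 there were 2 of the 9 and 26 of all loci, with Mirlet7c-1 at 0.61 (SE 0.23) and Mir125a at -0.63 (SE 0.24, adjusted p = 0.267, edgeR), and in DESeq2 Mir125a passed (adjusted p = 0.0424). The priming effects in cells and in vesicles are therefore not shown to differ at these loci.

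**Figure D5:**
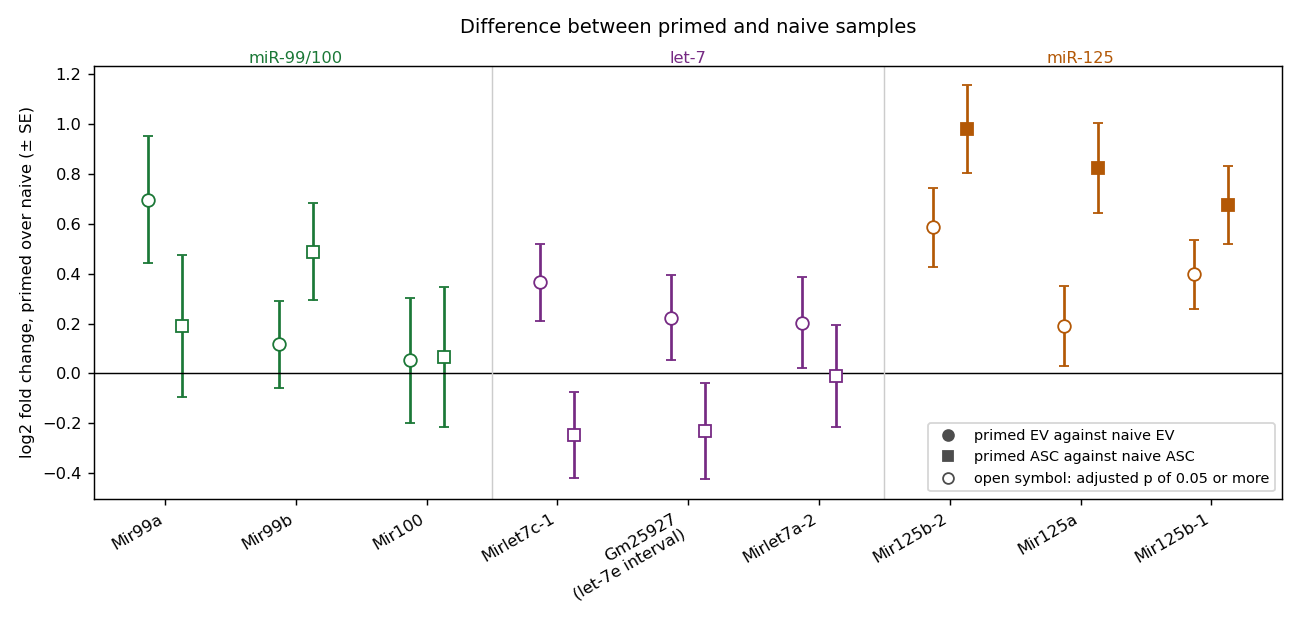
Log2 fold change of primed over naive samples (± SE, edgeR fit to 18 libraries) for the 9 loci, grouped by family, in EVs (circles) and ASC (squares), with open symbols where the adjusted p was 0.05 or more. The 3 filled symbols are the miR-125 loci in ASC, between 0.68 and 0.98.

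Across the 18 libraries, let-7 loci ran with one another and, to an unequal degree, against the miR-125 loci. On the log2 CPM scale Mir125a correlated with Mir125b-1 at r = 0.989, across chromosomes, and with its neighbour Mir99b at 0.989. Mirlet7a-2 correlated with its own cluster member Mir125b-1 at -0.807 and with the let-7e interval at 0.789, and Mirlet7c-1 with the let-7e interval at 0.851. With Mir125b-2, Mir125a and Mir125b-1 the let-7e interval correlated at -0.581, -0.640 and -0.633. Mirlet7c-1 did so more weakly, at -0.293, -0.410 and -0.398. These values are descriptions over 18 libraries that share the contrast of EVs with ASC. Outside the families, the locus most like Mir125a and Mir99b by Pearson's r was Mir574 (0.975 and 0.985), like Mir125b-1 Mir151 (0.975), like Mir125b-2 Mir140 (0.972), like Mirlet7a-2 Mir148a (0.918) and like Mir99a Mir23a (0.848). Mirlet7c-1, the let-7e interval and Mir100 had less similar nearest loci, Mir34a (0.728), Mir196a-2 (0.778) and Mir668 (0.778).

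Other loci with the same seeds gave a wider picture of the families. Of the 11 let-7 loci outside the clusters 9 were tested, and 5 were higher and 1 lower in primed EVs against primed ASC, and 5 higher and 2 lower in naive EVs against naive ASC. Of all tested loci 35.9% were higher and 32.2% lower in the primed comparison, and 33.5% and 32.7% in the naive one. The median log2 fold change of the 9 tested let-7 loci was 1.91 in primed and 1.38 in naive samples. The let-7 loci that passed upward were Mir98, Mirlet7f-1, Mirlet7f-2, Mirlet7g and Mirlet7i. Mirlet7b was lower in both, at -0.66 (SE 0.16) and -1.04 (SE 0.16), and Mirlet7d stood at -0.13 in both without passing. Of the loci that share a whole arm with a cluster member, Mirlet7c-2 stood at 0.02 in primed and at -0.43 in naive samples, where it was lower (SE 0.18, adjusted p = 0.0444, edgeR), and Mirlet7a-1, with 605 counts in all libraries together, at -0.43 and -0.59 without passing.

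Of the 3 other loci with the miR-125 seed, Mir351 was the 1 with enough counts to test. It was lower in EVs, at -0.78 (SE 0.21) in primed and -1.27 (SE 0.21) in naive samples, like the cluster members. In primed ASC it was lower than in naive ASC, at -1.07 (SE 0.23, adjusted p = 0.00762, edgeR), while the 3 miR-125 loci of the clusters were higher. Mir10a and Mir10b, which are related to the miR-99/100 family, passed in none of the comparisons.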

How the data were processed

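The deposited values were raw counts per miRNA hairpin locus in 18 libraries, with no normalization. Per the file headers, the authors counted with featureCounts 1.5.3 on Ensembl release 76, unstranded and without options for multimapping reads. Per the submitters' processing notes, bcl2fastq, STAR 2.0.4, Subread and featureCounts 1.45 were used on GRCm38. Read trimming is not given in these sources. Identifiers were named with GENCODE M21, which matched 1899 of 2009 loci, and the others held 5 of 17629699 counts. Groups came from the labels.

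Counts were fitted in edgeR 4.0.16 (R 4.3.3) with 1 mean per group. filterByExpr kept 245 loci with 99.9573% of counts, and TMM scaled the libraries. The quasi-likelihood test was adjusted by Benjamini-Hochberg over the 245 loci at a threshold of 0.05. Standard errors (SE) were taken from the log2 fold change and the test's F value, as their ratio with F under a square root. Ratios used log2 counts with a pseudocount of 0.5. Named loci were the 9 loci, others with the same seed, Mir10a, Mir10b and the nearest locus by correlation. Members and lists were chosen with earlier results of these data known. No 2 replicates agreed within sampling noise. The main fit did not pair samples by replicate number. The fit was tested on simulated data. Alternatives included DESeq2 1.42.0, limma 3.58.1, other scalings and filters, replicate blocks, thinning, summed loci and leaving out each library. No molecular identifiers were used, so PCR duplicates could not be removed and may be among the counts.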

Additional observations from a re-analysis of the deposited data

Results flagged for a closer look

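Of 112 sets of values (levels, shares and ratios by group), 3 held 1 library far from the others, where chance gives about 1 in 20. Mirlet7a-2 had 9367 CPM in primed ASC 5 and between 4851 and 5151 CPM in the other primed ASC libraries. The log2 ratio of Mir125b-1 to Mirlet7a-2 was 2.63 in the same library and between 3.73 and 3.86 in the others. The log2 ratio of Mir125b-1 to Mir125b-2 was 3.12 in primed EV 2 and between 2.74 and 2.84 in the other primed EV libraries.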

How the results depend on the processing

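The lowest count at any of the 9 loci in a library was 369, for Mir100. The calls of the 3 miR-125 loci and of Mir99b in EVs against ASC held in all 12 settings and in all 18 fits without 1 library, with the same direction, in both comparisons. The pseudocount changed no ratio call. The settings were planned, other than the GC line, which was added after the data were seen. Where no cause is named, the cause was not tested.

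The number of the 9 loci higher was 0 with library totals alone in naive EVs against naive ASC and in primed EVs against primed ASC. In the second it was 1 with at least 50 counts in 4 libraries and 1 after thinning to 180812 counts. In primed EVs against naive EVs it was 1 with DESeq2 and 1 under a replicate block by title number, where Mir125b-2 passed at 0.62 (adjusted p = 0.0383, edgeR). For the interaction 1 was lower with DESeq2.

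Without 1 library, 1 to 1 loci were higher and 5 to 6 lower in naive EVs against naive ASC, 1 to 3 and 4 to 6 in primed EVs against primed ASC, 0 to 2 and 0 to 0 in primed EVs against naive EVs, 2 to 4 and 0 to 0 in primed against naive ASC, and 0 to 0 in either direction for the interaction. The ratio tests then gave 0 to 0 calls in all comparisons. Fewer libraries raise the smallest possible p, and in primed against naive ASC no ratio had passed with all libraries either. In primed against naive EVs, 5 against 4 libraries can still reach a p of 0.0159 in the exact permutation test. Mir125b-2 over Mirlet7c-1 and Mir125a over Mir125b-2 had passed at that same p. Why these calls were lost was not tested. Under the replicate block by source name number there were also 0 calls of both kinds in each comparison. No called ratio changed direction.

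The main fit did not pair samples by replicate number, because same-numbered samples matched only in part. Deviations of same-numbered samples correlated between -0.16 and 0.42 in naive EVs with naive ASC, 0.08 and 0.39 in primed EVs with primed ASC, 0.05 and 0.52 in primed with naive EVs and 0.05 and 0.32 in primed with naive ASC. In the same order of comparisons, 3 of 4, 2 of 4, 2 of 5 and 2 of 3 pairs correlated best with their own number. The log2 ratio of Mir100 to Mir99a lay below 0 in replicates 3 and 4 of all 4 groups. It lay above 0 in replicates 2 and 5 wherever these were present. Replicate 1 kept no single sign, at -0.19 in primed EVs, 0.91 in naive EVs and 0.64 in naive ASC. Whether the numbers mark samples of a shared source was not tested. With the block by source name number Mir100 in naive EVs against naive ASC passed at -0.63 (adjusted p = 0.0037, edgeR), as it did by title number (-0.63, adjusted p = 0.00361, edgeR), and Mir99a in primed EVs against primed ASC at -0.62 (adjusted p = 0.0122, edgeR).

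Values that turned round were nearly all uncalled and near 0. Mirlet7c-1 in naive EVs against naive ASC was 0.0239 by relative log expression, 0.094 by TMMwsp, 0.0239 in DESeq2, 0.0588 thinned and -0.12 to 0.0863 without 1 library. By library totals it kept its direction and passed as lower, at -0.59 (adjusted p = 0.0033, edgeR). In primed EVs against primed ASC it was -0.20 by library totals and -0.60 with the GC line subtracted. The let-7e interval was -0.33 in naive EVs against naive ASC, -0.11 in primed EVs against primed ASC and -0.0833 in primed against naive EVs by library totals.

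In primed against naive EVs, library totals gave -0.17 for Mir99b, -0.10 for Mir125a, -0.10 for Mirlet7a-2 and -0.25 for Mir100. Mir99b was -0.0272 by TMMwsp and -0.00492 thinned. Mir100 was -0.0466 by relative log expression, -0.0998 by TMMwsp, -0.0517 with at least 50 counts, -0.0465 in DESeq2, -0.0689 with the groups compared alone, -0.0585 thinned and -0.0613 to 0.18 without 1 library.

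In primed against naive ASC, Mir100 was -0.0295 by library totals and -0.17 to 0.37 without 1 library. Mirlet7a-2 was 0.11 by relative log expression, 0.14 by TMMwsp, 0.15 with at least 50 counts, 0.11 in DESeq2, 0.0921 with the groups compared alone, 0.066 and 0.0413 under the replicate blocks by source name and title number, 0.10 thinned, 0.0852 summed with Mirlet7a-1 and -0.29 to 0.19 without 1 library. The interaction of Mir100 was 0.0508 with no filter, 0.0261 and 0.0243 under the same blocks and -0.43 to 0.13 without 1 library. That of Mirlet7a-2 was -0.00819 by relative log expression, -0.0959 by TMMwsp, -0.0453 with at least 50 counts, -0.00873 in DESeq2, -0.0109 thinned and -0.10 to 0.39 without 1 library.

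Uncalled ratios that changed sign without 1 library were the let-7e interval over Mirlet7c-1 (-0.0797 to 0.0956, and -0.0369 under the block), Mirlet7a-2 over Mir100 (-0.31 to 0.0994) and Mir100 over Mir99a (-0.47 to 0.10) in primed against naive ASC. Others were Mir100 over Mir99a in primed EVs against primed ASC (-0.19 to 0.37) and Mir125b-1 over Mir125a in naive EVs against naive ASC (-0.0543 to 0.0728). In primed against naive EVs they were Mir125b-2 over Mir99a (-0.17 to 0.0171), Mir125a over the let-7e interval (-0.14 to 0.0482), Mir100 over Mir99b (-0.19 to 0.0982) and Mirlet7a-2 over the let-7e interval (-0.095 to 0.0501).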
